A study of Mus musculus with 8 samples.

Results

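Zinc transporters of the SLC39 and SLC30 families, the metallothioneins Mt1 and Mt2 and the zinc sensor Mtf1 were described in liver RNA-seq counts. The group was chosen by the measured counts of Slc39a4 in these libraries, where its level in het-labelled livers on high fat diet was known to be far below that on chow, and its partners were listed for their function. The contrast used for the choice is not named, so no comparison of Slc39a4 is free of it. All 9 listed symbols had a row of their own in the deposited table of 22946 rows, and no row was merged with another gene. All 9 passed the filter on low counts, which kept 12593 rows. Slc39a4 is given below as a description with no test in any comparison. The other 8 genes carry the adjusted p of a model fitted across all 12593 rows.

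The livers came from C57 Black mice of 4 groups with 2 libraries each: MLL4 het on high fat diet (HFD, libraries 7 and 8), MLL4 het on chow (3 and 4), wild-type on HFD (5 and 6) and wild-type on chow (1 and 2). Each diet was given for 8 weeks from an age of 8 weeks. MLL4 is a histone methyltransferase encoded by Kmt2d, listed here as Mll2, and the labels give neither the allele nor the sex of the mice. Whether 2 libraries of one group are 2 animals is not given, so every p-value rests on a spread that may be technical. Libraries held between 14142884 and 18928676 counts. Mll2 stood at 62.7 to 75.3 CPM (counts scaled to the size of the library) in het-labelled HFD, 59.9 to 72.0 in het-labelled chow, 63.3 to 64.6 in wild-type HFD and 61.2 to 69.6 in wild-type chow libraries. Libraries labelled MLL4 het thus held no less of this RNA, and they are called het-labelled here. Hepatocyte markers such as Alb were abundant in every library, and their sum was lower in each HFD than in any chow library. Their summed level was 83145 to 85670 CPM in het-labelled HFD, 96057 to 99185 in het-labelled chow, 85268 to 85680 in wild-type HFD and 98244 to 106517 in wild-type chow libraries. Between diets the median log2 difference of the 9 markers was -0.10 in het-labelled livers, with a range of -0.39 to 0.49, against -0.0061 over all rows. In wild-type livers it was -0.23, with a range of -0.59 to 0.11, against 0.023 over all rows. For the diet in wild-type livers 1 of the 9 passed, Ahsg, which was lower on HFD (edgeR adjusted p = 0.0336), against 4.59% of all rows. In the other comparisons 0 of the 9 passed. The part of the lower sum in the results was not tested.

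Zinc enters the cytosol through SLC39 (ZIP) transporters and leaves it through SLC30 (ZnT) transporters. Metallothioneins are small cysteine-rich proteins that bind and buffer zinc and copper. The transcription factor MTF1 senses free zinc and, through short promoter motifs called metal response elements, switches on the metallothionein genes and Slc30a1. Liver is a main site of metallothionein synthesis, which is also known to respond to inflammation and glucocorticoids.

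The metal response element cores TGCACNC and TGCGCNC were looked for on both strands of RefSeq promoter windows of 300 bases, from 250 before to 50 after each annotated start (GRCm38.p6). Windows were held for 7 of the 9 genes, and none for Slc39a4 and Slc39a14. At least 1 core stood in 25.7% of the 32851 windows of all genes, at least 2 in 7.11%, at least 3 in 1.97% and at least 4 in 0.517%. Mt2 had 4, Mt1 had 3 and Slc30a1 had 2. Slc30a10 had 3, of which a pair on opposite strands overlapped. Slc39a5 and Slc39a8 each had 1 in 1 of their 2 windows, and the Mtf1 window had 0. The sites of Mt1, Mt2 and Slc30a1, the textbook MTF1 targets, are shown on the plus strand, which is the strand of all 3 genes, with the core in capitals and 10 bases of flank on each side. A core that reads GNGTGCA or GNGCGCA lies on the opposite strand.
Mt1 at chr8:94179056-94179082: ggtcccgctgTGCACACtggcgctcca
Mt1 at chr8:94179081-94179107: cagggagctcTGCACTCcgcccgaaaa
Mt1 at chr8:94179099-94179125: gcccgaaaagTGCGCTCggctctgcca
Mt2 at chr8:94172385-94172411: gcatcgcctcTGCACCCggcccctcgg
Mt2 at chr8:94172480-94172506: gcagacccttTGCGCTCagctcctttg
Mt2 at chr8:94172558-94172584: gggggagggcGTGTGCAggctctgtcc
Mt2 at chr8:94172612-94172638: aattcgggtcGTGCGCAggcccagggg
Slc30a1 at chr1:191906728-191906754: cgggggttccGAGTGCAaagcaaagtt
Slc30a1 at chr1:191906801-191906827: cctccgggccGAGCGCAgtcgccgcgg

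**Figure D1:**
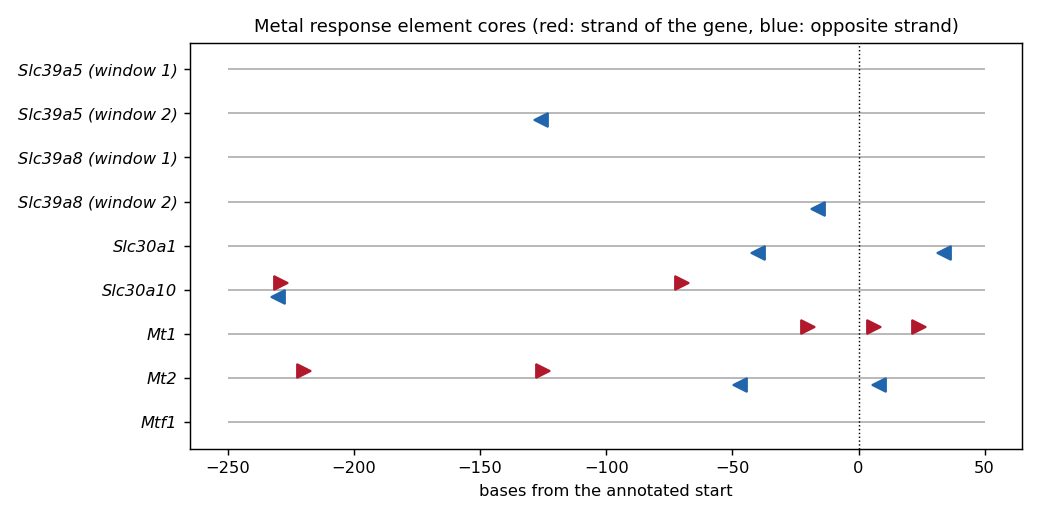
Position of each metal response element core in the promoter windows of the 7 genes with a window, in bases from the annotated start on the x axis. Each line is a window and each triangle a core, red on the strand of the gene and blue on the opposite strand. Mt2 holds 4 and Mt1 holds 3, against 0 for Mtf1.

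A match of these letters is a description and not a site in use. Cores outside the windows were not looked for, so the counts and positions depend on the annotated start. The Mt1 cores began at -23, 3 and 21 bases from the annotated start, those of Mt2 at -223, -128, -50 and 5, and those of Slc30a1 at -43 and 31. Mt1 and Mt2 are next to each other among the protein-coding genes of chromosome 8, on the same strand, with Mt3 on the far side of Mt2.

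Of the importers, Slc39a4 encodes ZIP4, the main zinc importer of the intestine, mutated in the human zinc deficiency acrodermatitis enteropathica. It had 2.52 and 1.99 CPM in het-labelled HFD livers, 36.1 and 28.8 in het-labelled chow, 16.4 and 15.3 in wild-type HFD, and 64.1 and 57.4 in wild-type chow livers. The 4 groups did not overlap: wild-type chow was highest, followed by het-labelled chow, wild-type HFD and het-labelled HFD. The groups' means were 2.26 ± 0.375, 32.4 ± 5.20, 15.9 ± 0.804 and 60.7 ± 4.77 CPM in the order of the values above (SD, n = 2 each). Behind the lowest group stood 47 and 28 counts, against 1018 and 990 in wild-type chow.

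On HFD, Slc39a4 was 14.4-fold lower than on chow in het-labelled livers by the ratio of means, with ratios of single libraries between 11.4 and 18.2. In wild-type livers it was 3.83-fold lower on HFD, with single ratios between 3.49 and 4.19. Het-labelled livers were 7.04-fold lower than wild-type on HFD (6.07 to 8.26) and 1.87-fold lower on chow (1.59 to 2.23). The log2 difference of the fitted model was -3.82 between diets in het-labelled and -1.94 in wild-type livers, and -2.79 between genotypes on HFD and -0.90 on chow. The difference between the diet responses was -1.89 on the log2 scale. When each library was left out in turn, these values lay between -4.02 and -3.65, -2.01 and -1.88, -2.99 and -2.65, -1.08 and -0.77, and -2.08 and -1.71. Of all counts of the 9 genes, Slc39a4 took 0.762% and 0.589% in het-labelled HFD, 11.1% and 9.25% in het-labelled chow, 5.06% and 4.45% in wild-type HFD, and 16.4% and 16.3% in wild-type chow libraries.

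**Figure D2:**
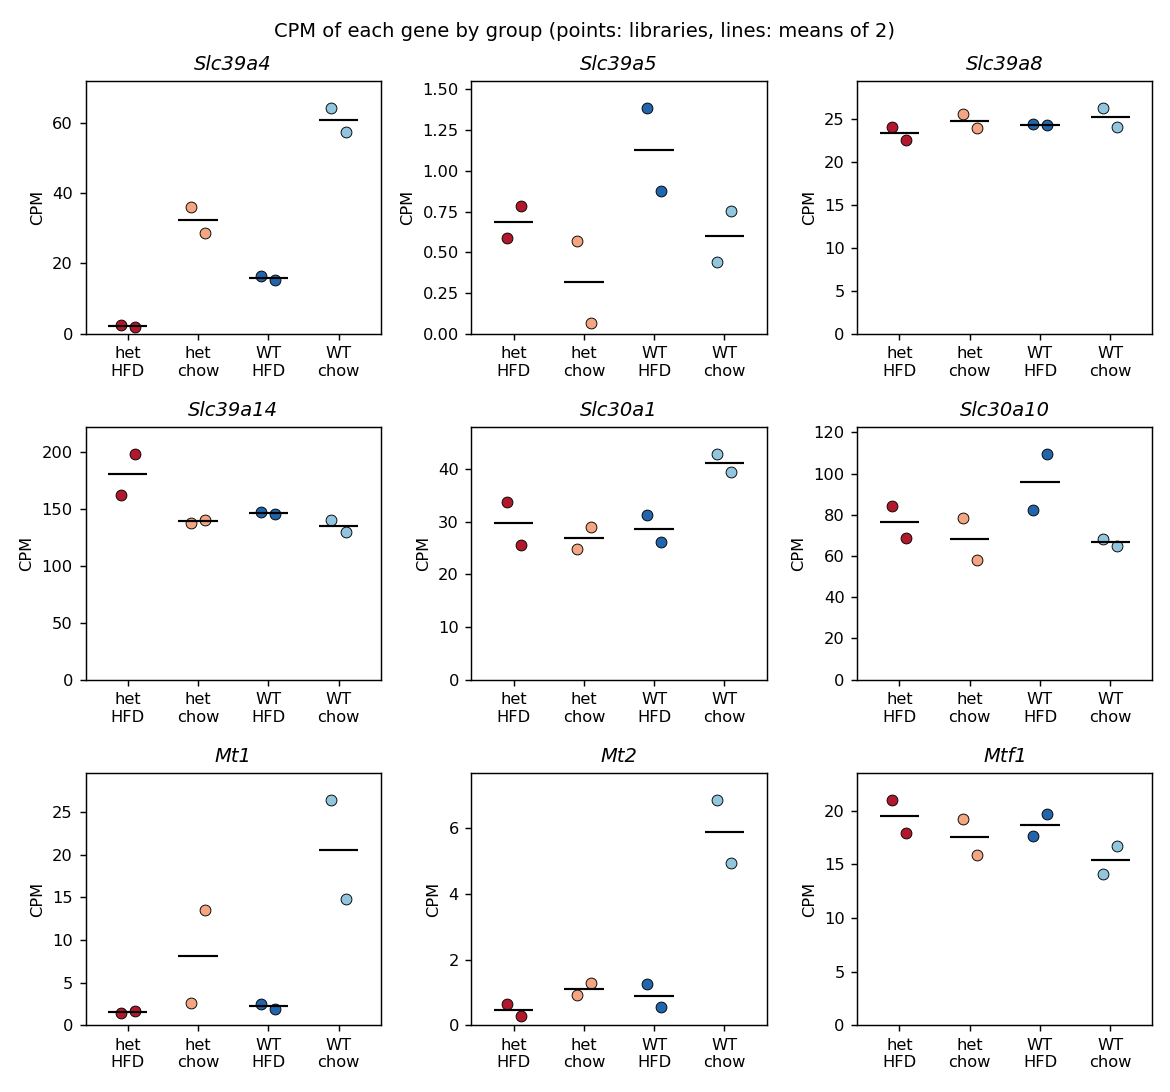
CPM of each of the 9 genes (y axes, each from 0) in the 4 groups (x axes), with a point for each library and a line at the mean of 2. Slc39a4 separates all 4 groups, Mt2 and Slc30a1 stand apart in wild-type chow livers, and Slc39a8 lies between 22.6 and 26.3 CPM throughout.

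Markers of organs with much Slc39a4 were looked at beside these values. Of 12 pancreatic acinar markers 11 had 0 counts in every library, and their summed level was at most 0.115 CPM. Of 9 rows of intestinal epithelial markers, 3 had 0 counts in every library, Cdx1, Cdx2 and Guca2a, which allows up to 0.213 CPM at 3 counts in the shallowest of them. Vil1, Rbp2, Lct and Cdh17 had at most 4 counts in any library, so the sum of the 9 rows rests on Fabp2 and the merged row of Lgals6 and Lgals4. This sum was higher on HFD than on chow, opposite to Slc39a4. It was 139 to 176 CPM in het-labelled HFD and 43.1 to 54.1 in het-labelled chow, with 188 to 196 in wild-type HFD and 57.1 to 63.9 in wild-type chow libraries. Most of it was Fabp2, a fatty acid binding protein, which rose to 145 CPM on HFD, against 34.3 on chow, in het-labelled livers (edgeR adjusted p = 9.35e-05), and to 179 CPM on HFD, against 46.5 on chow, in wild-type livers (edgeR adjusted p = 0.00017). The merged row of Lgals6 and Lgals4 averaged between 11.9 and 14.2 CPM in the 4 groups, and the part of these rows in the Slc39a4 levels was not tested. Kupffer cell markers stood highest in het-labelled chow libraries. Their summed level over 10 rows was 181 to 289 CPM in het-labelled HFD, 429 to 515 in het-labelled chow, 176 to 180 in wild-type HFD and 175 to 192 in wild-type chow libraries. On HFD 8 of the 10 were called lower in het-labelled livers, against 3.02% of all rows. On chow 6 were called higher in het-labelled than in wild-type livers, against 0.516%. In the other comparisons 0 were called. Both counts fell when some single libraries were left out, and the count between genotypes on chow rose without library 7. The part of these markers in the diet and genotype differences was not tested. Blood cell markers, 5 rows, summed to 350 to 371 CPM in het-labelled HFD, 240 to 253 in het-labelled chow, 654 to 828 in wild-type HFD and 258 to 320 in wild-type chow libraries, and their part was not tested either. In bulk tissue, fewer cells of a type and less RNA per cell cannot be told apart.

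The remaining importers lay within narrower ranges. Slc39a14, ZIP14, takes up zinc, iron and manganese in hepatocytes and is induced by interleukin-6. It had 162 and 198 CPM in het-labelled HFD, 137 and 140 in het-labelled chow, 147 and 146 in wild-type HFD, and 140 and 129 in wild-type chow livers. Both het-labelled HFD libraries were above all others, and the other 3 groups were close together. The log2 difference between HFD and chow was 0.38 ± 0.10 in het-labelled livers (SE, 95% interval 0.14 to 0.61, edgeR adjusted p = 0.101), which did not pass. In wild-type livers it was 0.12 ± 0.10 (interval -0.12 to 0.36, edgeR adjusted p = 0.595). Between genotypes on HFD it was 0.30 ± 0.10 (interval 0.062 to 0.53, edgeR adjusted p = 0.256).

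Slc39a8, ZIP8, a close relative of ZIP14, is also known as a manganese transporter. It had 24.1 and 22.6 CPM in het-labelled HFD, 25.6 and 24.0 in het-labelled chow, 24.5 and 24.3 in wild-type HFD, and 26.3 and 24.2 in wild-type chow livers. Its groups overlapped except for the genotypes on HFD, whose libraries differed by less than 2 CPM. Between diets the 95% interval of its log2 difference was -0.31 to 0.13 in het-labelled and -0.27 to 0.17 in wild-type livers. Between genotypes the interval was -0.28 to 0.16 on HFD and -0.24 to 0.20 on chow, and no edgeR adjusted p was below 0.706. Each of these intervals leaves out a change of 1 on the log2 scale in either direction.

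Slc39a5, ZIP5, an importer known from the pancreas and intestine, was near the limit of detection. It had 11 and 11 counts in het-labelled HFD, 8 and 1 in het-labelled chow, 24 and 16 in wild-type HFD, and 7 and 13 in wild-type chow libraries, or 0.0680 to 1.38 CPM over all 8. It did not pass in any comparison (edgeR adjusted p of 0.431 or more), and its intervals reached 2.70 on the log2 scale. Its locus overlaps Ankrd52 on the opposite strand, over whole genes with introns. Since the libraries' strand is not given, reads of these genes within the shared stretch cannot be told apart by strand. The same limit holds for Slc39a8 with 4933401H06Rik, Slc30a1 with 1700034H15Rik, Slc30a10 with Gm2061, Mt2 with Gm45774 and Mtf1 with the protein-coding 1110065P20Rik. On the same strand, Slc39a8 overlaps Gm43429 and Gm43428, and Mtf1 overlaps n-R5s192.

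Among the exporters, Slc30a1, ZnT1, carries zinc out across the plasma membrane. It had 33.8 and 25.7 CPM in het-labelled HFD, 24.9 and 29.0 in het-labelled chow, 31.3 and 26.1 in wild-type HFD, and 42.9 and 39.4 in wild-type chow livers. Wild-type chow stood above the other 3 groups, which overlapped each other. In wild-type livers the log2 difference between HFD and chow was -0.52 ± 0.15 (interval -0.86 to -0.18, edgeR adjusted p = 0.0952). On chow het-labelled livers differed from wild-type livers by a log2 value of -0.61 ± 0.15 (interval -0.95 to -0.26, edgeR adjusted p = 0.115). Neither passed here, and both passed when every row with a count was fitted (edgeR adjusted p = 0.0425 and 0.0412). The diet difference also passed when those groups alone were fitted (edgeR adjusted p = 0.0169), and the genotype difference on chow by DESeq2 (adjusted p = 0.0393). With a library left out, the diet difference ranged from -0.68 to -0.40 and the genotype difference from -0.74 to -0.50, and neither passed. The other diet difference, in het-labelled livers, was 0.15 ± 0.15 (edgeR adjusted p = 0.687), and the difference between the diet responses was 0.67 ± 0.21 (interval 0.18 to 1.15, edgeR unadjusted p = 0.0131, adjusted p = 0.625).

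Slc30a10, ZnT10, exports manganese. It had 84.4 and 68.7 CPM in het-labelled HFD, 78.3 and 57.9 in het-labelled chow, 82.3 and 110 in wild-type HFD, and 68.4 and 64.7 in wild-type chow livers. Het-labelled groups overlapped between diets, and wild-type groups did not. The log2 difference between HFD and chow was 0.17 ± 0.18 in het-labelled livers (edgeR adjusted p = 0.680) and 0.53 ± 0.18 in wild-type livers (interval 0.12 to 0.93, edgeR adjusted p = 0.147). The wild-type value passed only when the model was fitted to those 2 groups alone (edgeR adjusted p = 0.0430).

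Metallothionein RNA fell on HFD in wild-type livers. Mt1 had 1.45 and 1.63 CPM in het-labelled HFD, 2.62 and 13.5 in het-labelled chow, 2.54 and 1.97 in wild-type HFD, and 26.4 and 14.8 in wild-type chow livers. Chow libraries were above HFD libraries in both genotypes, and the chow libraries spread widely, above all in het-labelled livers, where library 4 was 5.16 times library 3. In wild-type livers Mt1 fell to 2.25 ± 0.403 CPM on HFD, against 20.6 ± 8.25 CPM on chow (SD, n = 2 each), a log2 change of -3.19 ± 0.62 (edgeR adjusted p = 0.0250). Leaving out library 1, 2, 5 or 6 ended the call (edgeR adjusted p = 0.166, 0.0628, 0.133 and 0.162, in that order). In het-labelled livers the log2 difference was -2.40 ± 0.71 (edgeR adjusted p = 0.118), which did not pass. Without library 3 it was -3.14 and passed (edgeR adjusted p = 0.0119), and without library 4 it was -0.77 and did not pass (edgeR adjusted p = 0.437).

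Mt2 had 0.643 and 0.284 CPM in het-labelled HFD, 0.921 and 1.29 in het-labelled chow, 1.27 and 0.546 in wild-type HFD, and 6.86 and 4.93 in wild-type chow livers. Wild-type chow stood above all the others, het-labelled chow overlapped wild-type HFD, and the lowest library rested on 4 counts. In wild-type livers Mt2 fell to 0.908 ± 0.511 CPM on HFD, against 5.89 ± 1.37 CPM on chow (SD, n = 2 each), a log2 change of -2.70 ± 0.38 (edgeR adjusted p = 0.00775). Leaving out library 1 ended the call (edgeR adjusted p = 0.0763), and without library 6 the adjusted p was just above the threshold. In het-labelled livers the log2 difference was -1.18 ± 0.55 (interval -2.44 to 0.078, edgeR adjusted p = 0.308).

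On chow, Mt2 was also lower in het-labelled than in wild-type livers, at 1.11 ± 0.263 CPM in het-labelled and 5.89 ± 1.37 CPM in wild-type livers (SD, n = 2 each). The log2 change was -2.40 ± 0.38 (edgeR adjusted p = 0.0464), just under the threshold. Leaving out library 1, 2, 3, 5 or 6 ended the call (edgeR adjusted p = 0.248, 0.277, 0.199, 0.0555 and 0.0605, in that order). The log2 difference of Mt1 was -1.34 ± 0.54 (interval -2.56 to -0.12, edgeR adjusted p = 0.285). Het-labelled chow library 4, at 13.5 CPM of Mt1, was close to wild-type chow library 2 at 14.8, while its Mt2 level of 1.29 CPM was below the 4.93 CPM of that library. Without library 4 the Mt1 value was -2.98 and passed (edgeR adjusted p = 0.0243). On HFD neither gene passed between genotypes, with log2 differences of -0.55 ± 0.82 for Mt1 (interval -2.41 to 1.31) and -0.88 ± 0.56 for Mt2 (interval -2.14 to 0.38).

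Mtf1, the zinc sensor itself, had 21.0 and 17.9 CPM in het-labelled HFD, 19.3 and 15.8 in het-labelled chow, 17.6 and 19.7 in wild-type HFD, and 14.1 and 16.7 in wild-type chow livers. Its groups overlapped in every comparison but the diet in wild-type livers. There the log2 difference was 0.28 ± 0.15 (interval -0.057 to 0.61, edgeR adjusted p = 0.356). It did not pass elsewhere, with edgeR adjusted p of 0.602 or more.

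**Figure D3:**
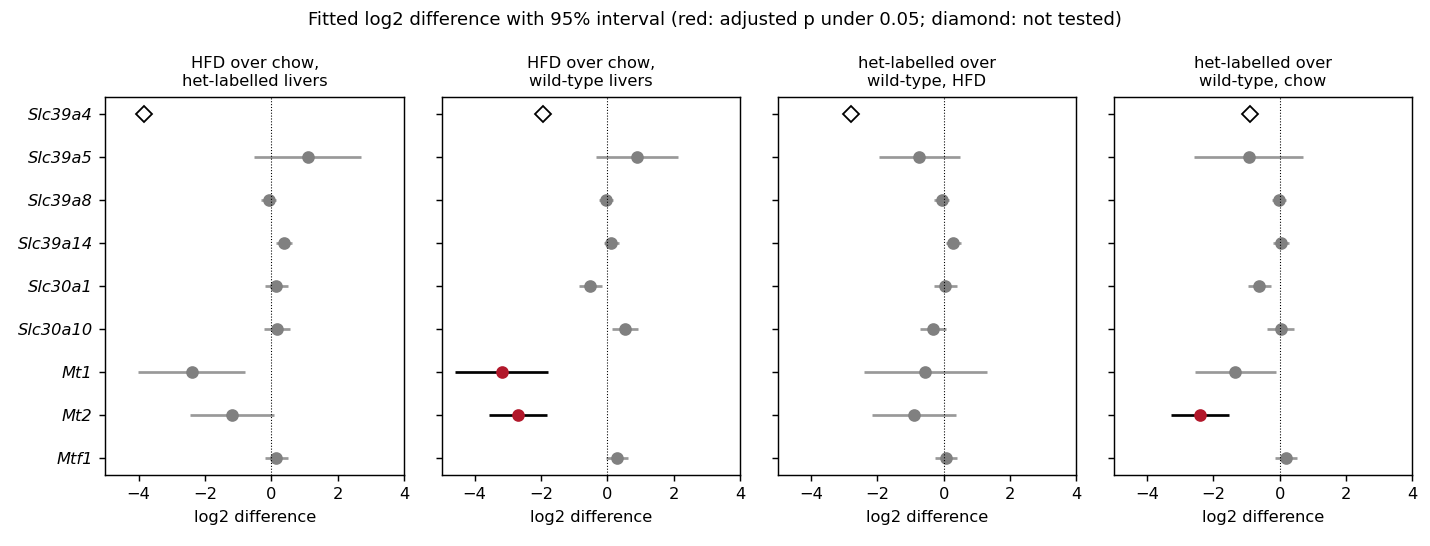
Fitted log2 difference (x axes) of each gene in 4 comparisons, HFD over chow in each genotype and het-labelled over wild-type on each diet. Points are estimates and lines 95% intervals, red points passed at an adjusted p under 0.05, and open diamonds mark Slc39a4, which was not tested. Mt1 and Mt2 passed between diets in wild-type livers, and Mt2 between genotypes on chow.

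Counted over the 8 genes other than Slc39a4, 2 were lower and 0 higher for the diet in wild-type livers, where 4.59% of all tested rows were called. In het-labelled livers, where the Slc39a4 difference was known beforehand, 0 were called between diets, against 3.02% of all rows. Of these 8, 2 had an unadjusted p under 0.05 by edgeR, against 2288 of all 12593 rows, and DESeq2 called 0. Between genotypes, 0 were called on HFD, against 0.445% of all rows, and DESeq2 called 0. There 1 had an unadjusted p under 0.05 by edgeR, against 1735 rows. On chow 1 was lower, against 0.516% of all rows. The difference between the diet responses was called in 0 of the 8 and in 0% of all rows by edgeR, with an unadjusted p under 0.05 in 1 of the 8 and in 900 rows. DESeq2 called 0 of the 8 and 23 of all rows. Between diets the median log2 difference of the 8 was 0.15 in het-labelled and 0.035 in wild-type livers, against -0.0061 and 0.023 over all rows. Between genotypes it was -0.19 on HFD and -0.32 on chow, against 0.0022 and 0.014 over all rows. Since the comparisons share libraries, their values for a gene are not independent.

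The rest of the SLC39 and SLC30 families with Mt3 and Mt4 made a list of 20 rows, of which 14 passed the filter. Mt3 and Mt4 had 0 counts in every library. Between diets in wild-type livers 1 of the 14 rose and 0 fell, a share near the 4.59% of all rows, and in the other 3 pairwise comparisons and for the difference of the diet responses 0 were called. An unadjusted p under 0.05 by edgeR was found in 3 of the 14 for the diet in wild-type livers, against 2407 of all 12593 rows. For the diet in het-labelled livers it was 2, against 2288 rows. For the genotype it was 1 on HFD, against 1735 rows, and 1 on chow, against 1932 rows. For the difference between the diet responses it was 0, against 900 rows. The list's median log2 difference was 0.014 between diets in het-labelled and 0.030 in wild-type livers, and -0.082 between genotypes on HFD and 0.048 on chow.

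The gene that rose was Slc39a10, ZIP10, an importer of the plasma membrane. It had 7.83 and 6.97 CPM in het-labelled HFD, 6.59 and 3.74 in het-labelled chow, 8.77 and 7.43 in wild-type HFD, and 3.46 and 3.42 in wild-type chow livers. HFD libraries were above chow libraries in both genotypes. The log2 change was 1.23 ± 0.25 in wild-type livers (edgeR adjusted p = 0.0285), and leaving out library 1, 2, 5 or 6 ended the call (edgeR adjusted p = 0.204, 0.156, 0.162 and 0.0858, in that order). In het-labelled livers the log2 difference was 0.53 ± 0.24 (edgeR adjusted p = 0.297). The genes with the smallest p among those that did not pass were Slc30a9 for the diet in het-labelled livers, at 59.5 CPM on HFD and 51.0 on chow, and Slc39a11 for the genotype on HFD, at 20.4 CPM in het-labelled and 27.1 in wild-type livers. For the genotype on chow it was Slc39a13, at 9.29 CPM in het-labelled and 7.05 in wild-type livers.

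**Figure D4:**
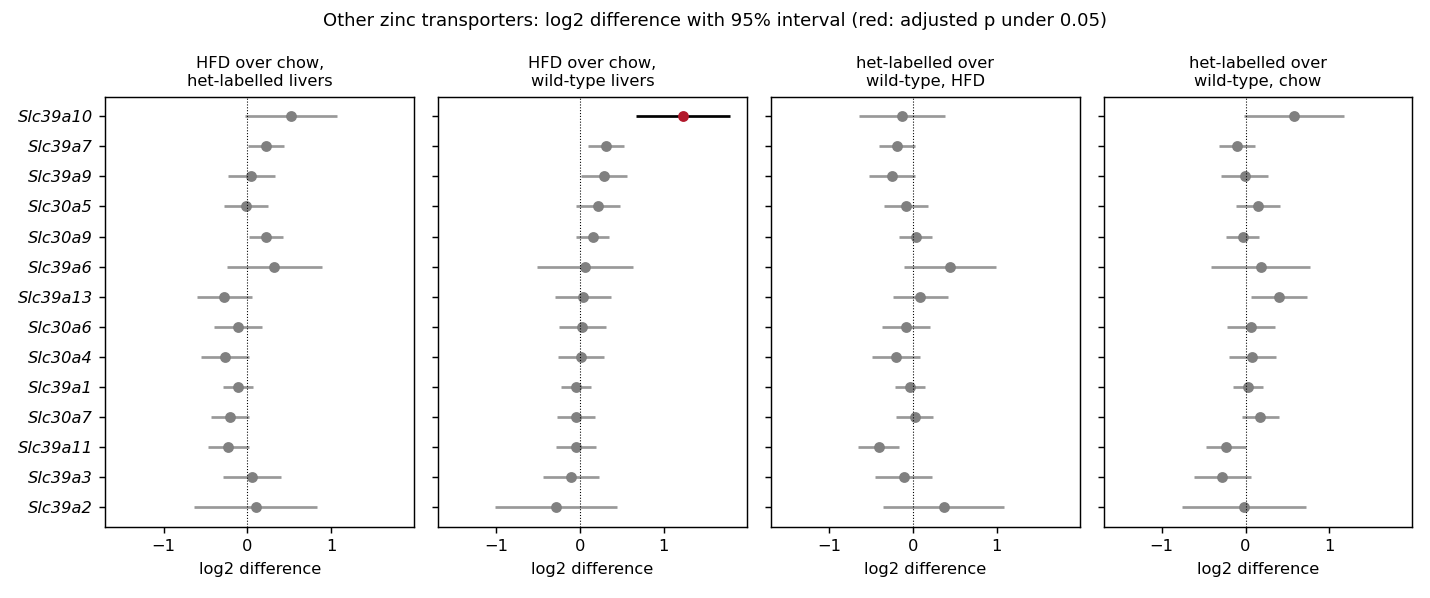
Fitted log2 difference (x axes) of the 14 tested zinc transporters outside the group of 9, in the same 4 comparisons, ordered by the diet difference in wild-type livers. Lines are 95% intervals. Slc39a10, in red at 1.23, was the gene that passed, and the other 13 lay between -0.41 and 0.44.

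Acute-phase and glucocorticoid-induced genes were set beside the metallothioneins, since both stimuli are known to induce Mt1 and Mt2. Of 24 acute-phase genes, 7 fell and 0 rose on HFD in het-labelled livers, where 3.02% of all rows were called, and 8 fell and 0 rose in wild-type livers, where 4.59% were called, with median log2 differences of -0.47 and -0.45. Saa3, a serum amyloid A, had 2.52 and 2.91 CPM in het-labelled HFD and 8.36 and 9.25 in het-labelled chow, with 2.13 and 1.42 in wild-type HFD and 8.56 and 7.53 in wild-type chow livers. Saa3 was lower in every HFD library than in any chow library. Leaving out library 1, 2, 3, 4, 7 or 8 lowered the het-labelled count to 2, 2, 4, 3, 3 or 2, and leaving out library 1, 2, 5 or 6 lowered the wild-type count to 3, 2, 5 or 4. DESeq2 called 13 in wild-type livers. Between genotypes 0 acute-phase genes were called by edgeR on either diet, with a median log2 difference of -0.024 on HFD and -0.029 on chow. DESeq2 called 1 on HFD and 0 on chow. The 10 glucocorticoid-induced genes had a median log2 difference of 0.32 between diets in het-labelled and 0.041 in wild-type livers, and of -0.23 between genotypes on HFD and -0.37 on chow. On HFD 1 of them was called in each genotype, Per1 in het-labelled and Dusp1 in wild-type livers, both higher, and each call ended when single libraries were left out. The list moved both ways, with log2 differences between diets from -1.01 to 1.67 in het-labelled and from -1.40 to 1.44 in wild-type livers. Zbtb16, which was not called, had 4.02 CPM on HFD and 7.87 on chow in het-labelled livers. In wild-type livers it had 3.55 CPM on HFD and 9.42 on chow. The part of either stimulus in the metallothionein levels was not tested.

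Over the 8 libraries, patterns were compared by the root mean square difference of log2 CPM after centring each row on its mean, among 11585 rows with a mean of at least 1 CPM. The rows most like Slc39a4, which itself spanned 4.93 on the log2 scale, were Slc13a2, a dicarboxylate transporter, at 0.69, the cytochrome P450 gene Cyp2b10 at 0.73, the glutathione transferase gene Gsta1 at 0.76, the cytochrome P450 gene Cyp2c55 at 0.78 and the tubulin gene Tuba8 at 0.85. Cyp2b10 had 0.375 and 0.498 CPM in het-labelled HFD, 25.1 and 20.1 in het-labelled chow, 2.88 and 3.11 in wild-type HFD, and 23.0 and 23.6 in wild-type chow livers. Its lowest values were in het-labelled HFD livers, as for Slc39a4, and its chow groups overlapped where those of Slc39a4 did not. Since these rows were picked for likeness over the same 8 libraries, shared places follow from the choice. Slc13a2 had 0.161 and 0.355 CPM in het-labelled HFD, 2.69 and 1.77 in het-labelled chow, 0.577 and 1.15 in wild-type HFD, and 4.22 and 7.65 in wild-type chow livers, in the same order of groups as Slc39a4.

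The rows most like Mt1 were Tuba8 at 0.57, B930025P03Rik at 0.65, Ndrg1 at 0.69, Mt2 at 0.69 in the fourth place, and Sc4mol, a gene of sterol synthesis, at 0.72. Ndrg1 had 4.13 and 7.68 CPM in het-labelled HFD, 14.9 and 33.2 in het-labelled chow, 6.0 and 5.96 in wild-type HFD, and 35.8 and 18.7 in wild-type chow livers. As for Mt1, by whose pattern this row was picked, library 4 was above library 3 and library 1 above library 2.

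**Figure D5:**
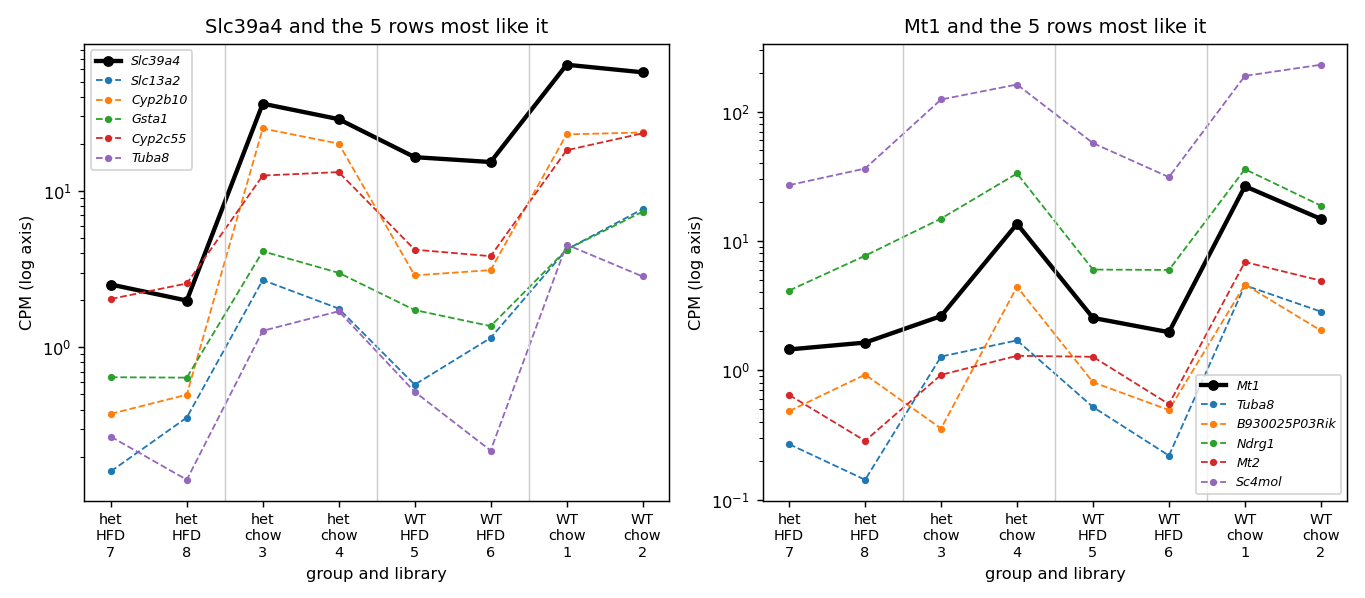
CPM on a log axis (y) in the 8 libraries (x, by group and library number) for Slc39a4 and Mt1 (thick lines) and the 5 rows most like each (dashed). Slc39a4 and 4 of its 5 nearest rows are lowest in both het-labelled HFD libraries, while Tuba8 overlaps there with wild-type HFD, and Mt1 and its 5 nearest rows are higher in het-labelled chow library 4 than in library 3.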

How the data were processed

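Liver RNA of 8 libraries was analysed, in 4 groups of 2 taken from the titles. The deposited table holds read counts per gene symbol, whole numbers that are not normalized, per the file headers and values. The submitters' processing notes name mouse build mm9 and the tools CASAVA, TopHat2, HTSeq and DESeq. Their versions and settings, the strand of the libraries and the treatment of reads with several matches are not given in the sources used here.

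R 4.3.3 with edgeR 4.0.16 was used. Its filterByExpr left 12593 of 22946 rows, and TMM factors scaled the libraries and the CPM values. The quasi-likelihood test used 4 groups over all 8 libraries, with 4 residual and 4.77 prior degrees of freedom. Tests were 2-sided, with Benjamini-Hochberg adjustment over all tested rows and a threshold of 0.05. The SE is the log2 difference divided by the root of its F statistic, so SE and 95% interval are approximate. The procedure was also run on counts simulated with the spread estimated from these libraries. That run cannot show whether the spread is between animals, and no result here rests on it. Within each group, the chi-square between libraries was 15.8 to 17.3 per degree of freedom, above sampling noise. A count of 3 equals 0.161 to 0.213 CPM.

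The members and lists were chosen with earlier results of these data known. All 9 members are named, with called genes of the list of other zinc transporters or else those of smallest p, and the 5 rows most like Slc39a4 and Mt1. Alternatives were DESeq2 size factors, no filter on low counts, the DESeq2 1.42.0 Wald test, a fit to the groups compared alone, and each library left out in turn. Overlapping genes were taken by name from a GENCODE annotation of GRCm38.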

Additional observations from a re-analysis of the deposited data

How the results depend on the processing

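No paired analysis was possible because the library numbers run from 1 to 8 and no number is shared between groups. Groups of 2 limit every test here: of 529 recomputed log2 differences of the 9 genes, 488 kept their direction and their side of the threshold, 11 lost and 8 gained a call, 19 changed sign, and 3 of Slc39a4, all without library 7, moved by more than the spread between libraries. Every change of sign came from leaving out 1 library, in genes that were not called. The cause was not tested. Where leaving out a library left a group with 1, that library was assumed to vary like the other groups. Low counts limit Slc39a5 and Mt2.

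Of the 8 genes other than Slc39a4, 4 were called for the diet in wild-type livers when only those groups were fitted, and between 0 and 2 with a library left out. For the diet in het-labelled livers 1 was called when every row with a count was fitted, and 0 to 1 with a library left out. On chow, 2 were called between genotypes by DESeq2 and 2 with every row, and 0 to 2 with a library left out. For the genotype on HFD and the difference of the diet responses the count was 0 under every alternative run. The genes gained with every row were Mt1 for the diet in het-labelled livers (edgeR adjusted p = 0.0292) and Slc30a1 in both comparisons with wild-type chow livers.

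The number of called rows among all genes moved more. For the diet in het-labelled livers it was 380, against 680 with every row, 105 with those groups alone and 144 to 293 with a library left out. For the diet in wild-type livers it was 578, against 1351 with those groups alone and 98 to 896 with a library left out. Between genotypes on HFD it was 56, against 229 by DESeq2, 258 with every row, 26 with those groups alone and 12 to 177 with a library left out. Between genotypes on chow it was 65, against 219 by DESeq2, 314 with every row and 1 to 269 with a library left out. For the difference of the diet responses it was 0, against 23 by DESeq2, 8 with every row and 0 to 14 with a library left out.

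With a library left out, the log2 differences that changed sign ranged as follows. For the diet in het-labelled livers Slc30a1 ranged from -0.070 to 0.33 and Slc30a10 from -0.031 to 0.41. For the genotype on chow Slc30a10 ranged from -0.20 to 0.22, Slc39a14 from -0.015 to 0.087 and Slc39a8 from -0.086 to 0.025. On HFD, between genotypes, Mtf1 ranged from -0.061 to 0.17 and Slc30a1 from -0.16 to 0.24. For the difference of the diet responses Mtf1 ranged from -0.25 to 0.027, Slc39a5 from -0.62 to 2.29 and Slc39a8 from -0.083 to 0.026.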
